A study of Arabidopsis thaliana with 4 samples.

Results

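The 10 genes described here encode the ethylene receptors and the proteins that carry their signal in Arabidopsis thaliana, and they were taken by locus from the 33602 genes of the count files. They are the receptors ETR1 (AT1G66340), ERS1 (AT2G40940), ETR2 (AT3G23150), ERS2 (AT1G04310) and EIN4 (AT3G04580), followed by CTR1 (AT5G03730), EIN2 (AT5G03280), EIN3 (AT3G20770), EBF1 (AT2G25490) and EBF2 (AT5G25350). In the RefSeq annotation ETR1 and ERS2 lie on chromosome 1, ERS1 and EBF1 on chromosome 2, ETR2, EIN4 and EIN3 on chromosome 3, and CTR1, EIN2 and EBF2 on chromosome 5. All 10 were detected in every library and all passed the filter on low counts. RNA was measured by sequencing in 4 libraries of sorted protoplasts from the abscission zone of flowers. Of these, 2 came from residuum cells (REC), which stay on the receptacle when floral organs are shed, and 2 from secession cells (SEC), which leave with the shed organ. Every library carries the ebp1 mutation in the Col-0 background and a nuclear GFP-GUS reporter under the QRT2 promoter, by which cells were sorted. The plants stood at 22°C under a 16 h day and an 8 h night, and their age is not given. No wild-type cells are part of the comparison, so it sets the sides of the break against each other within the mutant and does not show what the mutation changes. Whether the replicates are separate plants is not stated in the labels, and p-values therefore measure only the spread between these libraries, which may be technical.

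Ethylene is a gaseous hormone that hastens the shedding of floral organs. Its receptors sit in the membrane of the endoplasmic reticulum and are negative regulators: without ethylene they keep the kinase CTR1 active, and CTR1 holds the membrane protein EIN2 inactive. When ethylene binds, this block is lifted, and EIN2 signals to the nucleus, where the transcription factor EIN3 is stabilised and activates ethylene-responsive genes. The F-box proteins EBF1 and EBF2 mark EIN3 for degradation, so much of the control acts on proteins, which RNA counts do not measure.

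Levels are CPM, counts scaled to a common library size (normalised by TMM), and differences are log2 fold changes, REC minus SEC, given with their standard error (SE), 95% interval and Benjamini-Hochberg adjusted p, from a quasi-likelihood test in edgeR across 18384 genes. Gene counts per library ran from 12191718 to 16102115. The REC libraries differed less from each other than the SEC libraries did, where chi-square over its degrees of freedom was 5.52 in the REC pair and 74.8 in the SEC pair. The difference within the SEC pair followed transcript length. Among genes averaging 10 CPM or more, SEC replicate 1 over SEC replicate 2 had a median log2 ratio of 0.73 in transcripts under 1000 nt and −1.16 in those of 4000 nt or longer, while the medians by length class in the REC pair lay between −0.05 and 0.08. QRT2, whose promoter drives the sorting reporter, was read at 493 and 568 CPM in REC against 459 and 694 CPM in SEC, and a gene on the opposite strand, AT3G07980, overlaps it. Of 9 abscission zone genes, QRT2 included, 1 passed the test as higher in REC and 3 as higher in SEC, where 0.495% and 2.18% of all genes tested passed in those directions. Both REC libraries lay above both SEC libraries for 3 of the 9 (HAE, KNAT2 and KNAT6), and 4 had SEC above, where 29.8% and 28.2% of all genes tested did. KNAT6, the gene called higher in REC, had 48.1 and 54.1 CPM in REC and 11.2 and 13 CPM in SEC. ADPG2, IDA and BP were the genes called higher in SEC. ADPG2 had 22.8 and 21.9 CPM in REC and 147 and 171 CPM in SEC, and IDA had 0.471 and 0.867 CPM in REC and 32.5 and 13.9 CPM in SEC. The polygalacturonase gene ADPG1 had low counts, 0 and 1 in REC and 13 and 21 in SEC, and was not called (adjusted p = 0.116 by edgeR). The list had summed levels of 1610 and 1782 CPM in REC and 2807 and 3018 CPM in SEC. BP was the largest part of the SEC sums, with 476 and 508 CPM in REC and 1924 and 1635 CPM in SEC. Markers of other cell types were low in all libraries. Their summed levels in REC and SEC were 0.864 and 0.867 against 1.24 and 1.41 CPM for pollen and tapetum (5 genes), 0 and 0 against 1.31 and 0 CPM for nectary (3 genes), 3.14 and 4.27 against 2.32 and 3.08 CPM for xylem (5 genes), and 3.53 and 4.07 against 2.93 and 4.69 CPM for guard and myrosin cells (4 genes). The 3 phloem genes summed to 9.26 and 9.34 CPM in REC and 3.32 and 0.642 CPM in SEC, nearly all from SUC2, with the phloem regulator APL at 0 counts in all libraries. The part of these cells in the values below was not tested.

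No member of the ethylene receptor and core signalling group passed the test. By edgeR, 0 of the 10 genes were called in either direction at an adjusted p under 0.05, against 2.67% of all genes tested (0.495% higher in REC and 2.18% higher in SEC). DESeq2 also called 0 of the 10, where it called 12.7% of all genes, and limma voom called 0, where it called 2.24%. The edgeR fits with upper-quartile normalization, without the filter and with the replicate number as a block called 0 as well, where they called 1.85%, 4.82% and 9.18% of all genes. At an unadjusted p under 0.05, ETR1 was higher in REC and EIN3 was higher in SEC, 2 of 10 members where 23.6% of all genes passed that mark (9.46% higher in REC and 14.1% higher in SEC). Both libraries of one group lay above both of the other for 5 members, ETR1 and EIN4 with REC above and ERS1, EIN3 and EBF2 with SEC above. That share is near the 58% of all genes tested whose groups do not overlap (29.8% with REC above and 28.2% with SEC above). In such bulk samples, fewer cells of a type and less RNA per cell cannot be told apart.

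**Figure D1:**
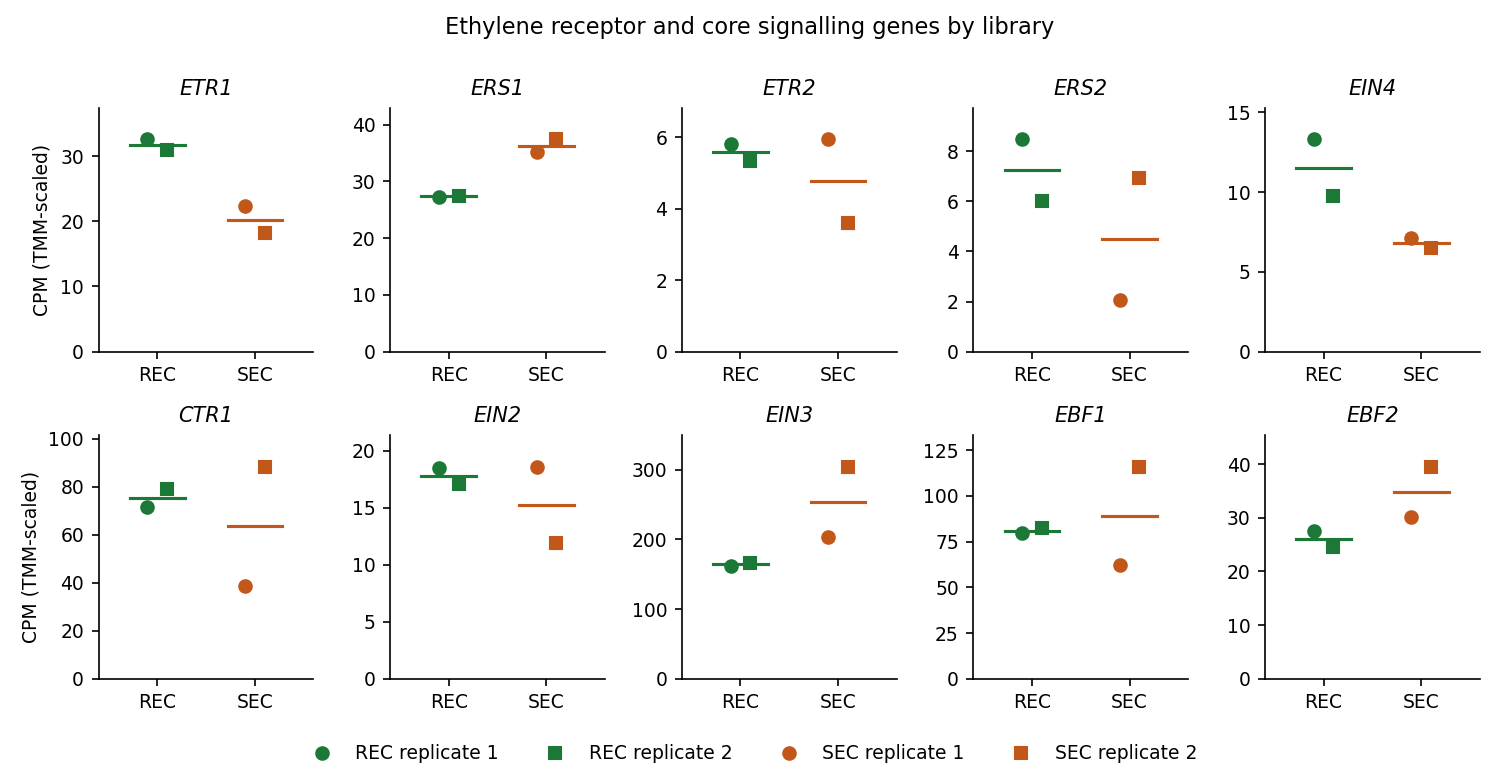
Normalised counts (CPM, linear axes from 0) of the 10 genes in each library, with REC in green and SEC in orange, circles for replicate 1, squares for replicate 2 and a bar at the mean of each pair. The REC libraries lie close together for most genes, whereas SEC replicates 1 and 2 stand far apart for CTR1 (38.8 and 88.3 CPM), ERS2 (2.08 and 6.93 CPM) and EBF1 (62.5 and 116 CPM).

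ETR1 and ERS1 form the first receptor subfamily, which has a conserved histidine kinase domain. ETR1 also has a receiver domain at its end, which ERS1 lacks. ETR1 had 32.6 and 31 CPM in REC and 22.3 and 18.2 CPM in SEC. Both REC values lay above both SEC values, and the fitted level was 1.57-fold higher in REC, short of the threshold (log2 fold change 0.65, SE 0.25, 95% interval 0.03 to 1.27, adjusted p = 0.195 by edgeR). ERS1 ran the other way, with 27.2 and 27.5 CPM in REC and 35.2 and 37.4 CPM in SEC. The SEC values were both above the REC values for ERS1, a 1.33-fold difference that also missed the threshold (log2 fold change −0.41, SE 0.22, 95% interval −0.97 to 0.15, adjusted p = 0.341 by edgeR). ETR1 overlaps AT1G66345 on the same strand, which had 51 and 46 counts in REC and 41 and 46 in SEC. Without strand, reads of ERS1 cannot be told from those of AT2G40935, which overlaps it on the opposite strand and had 39 and 78 counts in REC and 92 and 101 in SEC.

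ERS1 lay higher in both SEC libraries and ETR1 in both REC libraries, so their ratio had to separate the groups. Groups did not overlap for 58% of all genes tested, and the share over gene pairs was not counted. ERS1 and ETR1 have transcripts of 2428 and 2774 nt, and per kilobase of transcript the ratio of ERS1 to ETR1 was 0.955 and 1.01 in REC against 1.8 and 2.35 in SEC. Both transcripts were thus about equally abundant in REC, and ERS1 was the more abundant in each SEC library. Taken on raw counts, ERS1 made up 45.5% of the counts of the pair in REC replicate 1 (exact 95% interval 42% to 49.2%) and 47% in REC replicate 2 (43.6% to 50.3%). In SEC replicates 1 and 2 it made up 61.2% (57.6% to 64.7%) and 67.2% (64% to 70.4%). These intervals treat each read as an independent draw and leave out the spread between libraries. Amplified reads are not independent molecules, so the intervals may be too narrow even for counting error. The ratio was picked out after its values were seen and was not tested: with 2 libraries against 2, an exact two-sided permutation test cannot give a p below 0.333.

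ETR2, ERS2 and EIN4 form the second subfamily, whose kinase domains lack residues needed for histidine kinase activity. EIN4 had 13.3 and 9.74 CPM in REC and 7.1 and 6.48 CPM in SEC. REC lay above SEC without overlap, at a 1.7-fold difference that missed the threshold (log2 fold change 0.76, SE 0.34, 95% interval −0.09 to 1.62, adjusted p = 0.256 by edgeR). ERS2 had 8.48 and 6.01 CPM in REC and 2.08 and 6.93 CPM in SEC, from 27 counts in SEC replicate 1 and 90 to 108 in the others. SEC replicate 1 was the low library, and the groups overlapped (log2 fold change 0.68, SE 0.64, 95% interval −0.95 to 2.3, adjusted p = 0.581). Without SEC replicate 1 the log2 fold change of ERS2 was 0.06, and with SEC replicate 2 left out it passed the threshold at 1.8 (adjusted p = 0.00221 by edgeR). ETR2 was the lowest member per length in REC, with 5.81 and 5.34 CPM there and 5.94 and 3.59 CPM in SEC. Its groups overlapped, and its log2 fold change of 0.23 (SE 0.45, 95% interval −0.9 to 1.35, adjusted p = 0.804) turned to −0.1 with the trend on transcript length removed.

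Per kilobase of transcript, the 5 receptors summed to 32.1 and 29.5 CPM in REC against 27.4 and 27.8 CPM in SEC. ETR1 made up 37.3% ± 0.985 of that sum in REC and 26.5% ± 4.04 in SEC (SD, n = 2 each). The share of ERS1 was 36.7% ± 2.47 in REC and 54.2% ± 1.79 in SEC. EIN4 contributed 12.5% and 9.96% in REC and 7.82% and 7.03% in SEC. For these 3 receptors the shares of REC and SEC did not overlap, whereas those of ETR2 and ERS2 did. The same 3 had CPM without overlap, as 58% of all genes tested had, so the count is no result about the receptors. The receptors that carry a receiver domain (ETR1, ETR2 and EIN4) together held 54.8% and 53.7% of the pool in REC and 44.1% and 34.8% in SEC. The first subfamily held 71.5% and 76.4% in REC and 82.3% and 79.2% in SEC. Shares within one library sum to 100%, so a higher share of ERS1 lowers the others.

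**Figure D2:**
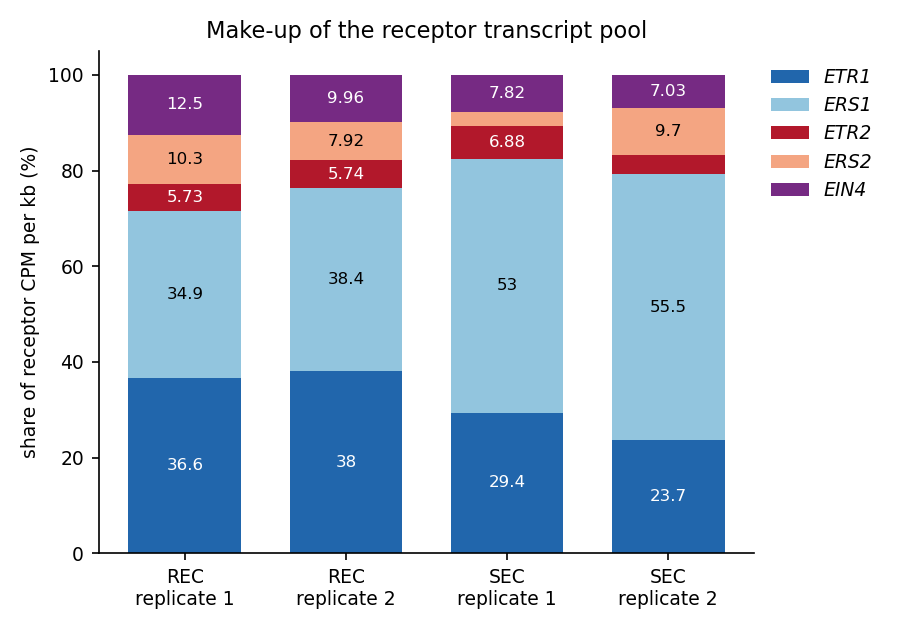
Share of each receptor in the summed CPM per kilobase of the 5 receptor transcripts (vertical axis, percent), one bar per library, with numbers for shares above 5%. The ERS1 part is 34.9% and 38.4% in REC and 53% and 55.5% in SEC, and the ETR1 part is 36.6% and 38% in REC and 29.4% and 23.7% in SEC.

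CTR1, the Raf-like kinase that the receptors activate, had 71.4 and 79.2 CPM in REC and 38.8 and 88.3 CPM in SEC. The SEC replicates lay on either side of REC (log2 fold change 0.24, SE 0.41, 95% interval −0.79 to 1.28, adjusted p = 0.769 by edgeR). With SEC replicate 1 left out, CTR1 stood at −0.23 on the log2 scale, and with SEC replicate 2 left out at 0.97 (adjusted p = 2.84e-05), so the direction of CTR1 rested on which SEC library was read. EIN2, the membrane protein under CTR1, had 18.5 and 17.1 CPM in REC and 18.6 and 11.9 CPM in SEC. Its groups overlapped too (log2 fold change 0.23, SE 0.32, 95% interval −0.59 to 1.04, adjusted p = 0.729 by edgeR). It was −0.05 without SEC replicate 2, 0.58 without SEC replicate 1 (adjusted p = 0.0479) and −0.35 with the length trend removed.

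EIN3, the transcription factor at the end of the chain, had 162 and 166 CPM in REC and 203 and 304 CPM in SEC. The SEC libraries were both higher, by 1.55-fold in the fit, and the difference missed the threshold (log2 fold change −0.63, SE 0.25, 95% interval −1.25 to −0.01, adjusted p = 0.206 by edgeR). With the trend on transcript length removed from each library, EIN3 passed as higher in SEC (log2 fold change −0.68, SE 0.12, adjusted p = 0.0266), the only member called in that fit, where 14.5% of all genes were called (6.21% higher in REC and 8.33% higher in SEC). Adding the replicate number as a block to that fit gave −0.68 with an adjusted p of 0.0442, where 11.4% of all genes were called (4.44% higher in REC and 6.97% higher in SEC). The size of the difference depended on the SEC library, at −0.89 without SEC replicate 1 and −0.3 without SEC replicate 2.

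EBF1 and EBF2, which target EIN3 for degradation, differed from each other in their spread. EBF1 had 79.5 and 82.4 CPM in REC and 62.5 and 116 CPM in SEC. The SEC replicates again lay on either side of REC (log2 fold change −0.14, SE 0.33, 95% interval −0.97 to 0.7, adjusted p = 0.841 by edgeR), and EBF1 passed the threshold in opposite directions without SEC replicate 1 (−0.52, adjusted p = 0.003) and without SEC replicate 2 (0.39, adjusted p = 0.0161). EBF2 had 27.6 and 24.5 CPM in REC and 30.2 and 39.5 CPM in SEC. Both SEC values were higher, a 1.34-fold difference that did not pass (log2 fold change −0.42, SE 0.26, 95% interval −1.07 to 0.23, adjusted p = 0.39 by edgeR). A gene on the opposite strand, AT5G25340, overlaps EBF2 and had 53 and 74 counts in REC and 94 and 91 in SEC, where EBF2 had 352 and 367 in REC and 391 and 616 in SEC.

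**Figure D3:**
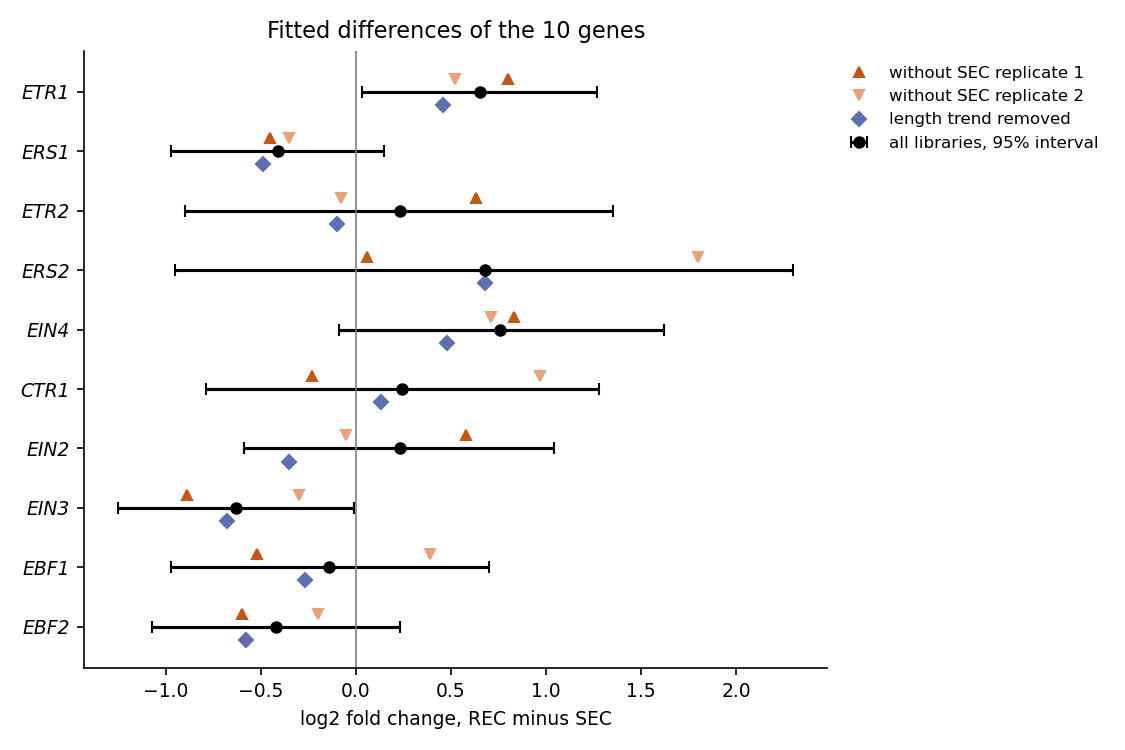
Log2 fold changes of REC minus SEC (horizontal axis) for the 10 genes, with black points and bars for all 4 libraries and their 95% intervals, triangles for fits without one SEC library and diamonds for the fit with the length trend removed. ETR1, ERS1, ERS2, EIN4, EIN3 and EBF2 keep their side of 0 in the fits drawn, and CTR1, EIN2, ETR2 and EBF1 change sides in at least one of them.

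Leaving out a SEC library raised the number of calls, with the spread then estimated from the REC pair alone and the remaining SEC library assumed to vary like it. Without SEC replicate 1, 3 members were called higher in REC (ETR1, EIN4 and EIN2) and 4 higher in SEC (ERS1, EIN3, EBF1 and EBF2), with 38.7% of all genes called (18.7% higher in REC and 20% higher in SEC). Without SEC replicate 2, 5 were called higher in REC (ETR1, ERS2, EIN4, CTR1 and EBF1) and 1 higher in SEC (EIN3), with 55.5% of all genes called (29.4% higher in REC and 26.1% higher in SEC). Without SEC replicate 1 and without SEC replicate 2, log2 fold changes were 0.8 and 0.52 for ETR1, 0.83 and 0.71 for EIN4, and −0.89 and −0.3 for EIN3. The groups of these genes do not overlap with all 4 libraries, so leaving out 1 SEC library could hardly turn their direction. Without either REC library 0 members were called, at 0.593% and 1.69% of all genes.

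The length trend within the SEC pair was not followed by all members. From their lengths, the trend gave, for SEC replicate 1 over SEC replicate 2, log2 ratios between −0.38 for ERS1 and −1.25 for EIN2, whose transcript of 4851 nt is the longest. CTR1, EBF1 and EIN3 followed it, with observed ratios of −1.18, −0.89 and −0.58 where the trend gave −0.82, −0.73 and −0.39. ERS2 fell further, with −1.67 where the trend gave −0.47. EIN2, ETR2, ETR1 and EIN4 went against it, with observed ratios of 0.64, 0.7, 0.29 and 0.13 where the trend gave −1.25, −0.78, −0.59 and −0.84. The median size of the log2 difference between replicates was 0.11 over the 10 members in the REC pair and 0.61 in the SEC pair, beside 0.12 in the REC pair and 0.47 in the SEC pair over all genes averaging 10 CPM or more. The origin of these differences between the SEC libraries was not tested.

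**Figure D4:**
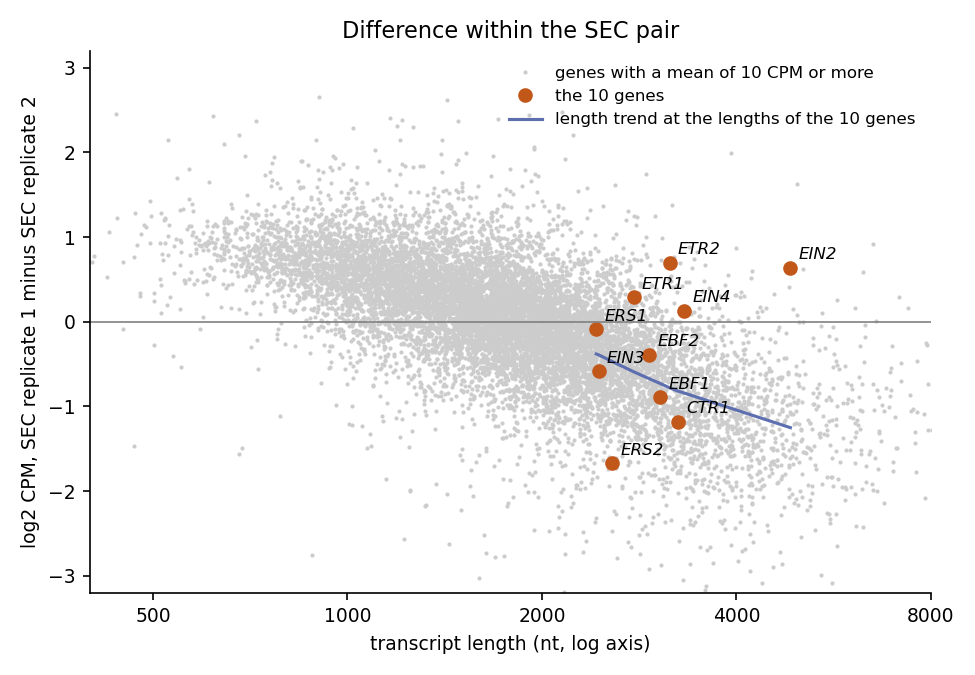
Log2 CPM of SEC replicate 1 minus SEC replicate 2 (vertical axis) against transcript length (nt, log axis) for genes averaging 10 CPM or more in grey, of which 75 lie outside the axes, and for the 10 genes in orange, with the trend on length drawn in blue at their lengths. CTR1, EBF1 and EIN3 lie near the blue line, ERS2 lies below it at −1.67, and EIN2, ETR2, ETR1 and EIN4 lie above 0.

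Compared per kilobase of transcript, the order of levels was led by EIN3 and EBF1 in all 4 libraries. In REC, EIN3 stood at 67 ± 1.3 CPM per kb, EBF1 at 26.5 ± 0.684, CTR1 at 23.2 ± 1.69, ETR1 at 11.5 ± 0.397, ERS1 at 11.3 ± 0.0719, EBF2 at 8.9 ± 0.76, EIN2 at 3.67 ± 0.19, EIN4 at 3.48 ± 0.768, ERS2 at 2.82 ± 0.68 and ETR2 at 1.77 ± 0.106 (SD, n = 2). ETR1 and ERS1 overlapped there, as did EIN2 with EIN4 and EIN4 with ERS2, and the other neighbours in the order did not. In SEC the levels were 104 ± 29.2 for EIN3, 29.2 ± 12.3 for EBF1, 19.5 ± 10.8 for CTR1, 15 ± 0.647 for ERS1, 11.9 ± 2.26 for EBF2, 7.31 ± 1.04 for ETR1, 3.14 ± 0.981 for EIN2, 2.05 ± 0.132 for EIN4, 1.75 ± 1.33 for ERS2 and 1.51 ± 0.527 CPM per kb for ETR2. There EBF1, CTR1 and ERS1 overlapped with their neighbours, and so did EIN4, ERS2 and ETR2. ETR1 ranked above EBF2 in both REC libraries and below it in both SEC libraries. The swap restates the CPM of ETR1 and EBF2, whose groups do not overlap, as in 58% of all genes tested.

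ERS1, ERS2, ETR2 and EBF2 are among the genes whose transcripts are known to rise with ethylene, and EIN3 binds the EBF2 promoter. The 1000 bases before each gene start in the RefSeq annotation of TAIR10.1 were searched on both strands for the site bound by EIN3, in the forms ATGTATCT, ATGTACCT, ATGAATCT, ATGAACCT, ACGTATCT, ACGTACCT, ACGAATCT and ACGAACCT. A match stood before 3 of the 10 members, ERS1, ETR2 and EBF1, and before 24.5% of 27443 protein-coding genes. They are shown because they hold the letters that EIN3, itself a member, is known to bind. ERS1 has matches on both strands that share 2 bases, from 76 to 63 bases before the gene start, ETR2 has single matches that begin 651 and 320 bases before it, and EBF1 has one that begins 971 bases before it. Capitals mark the matches, each with 8 bases on either side, read 5′ to 3′ along the gene's own strand (ERS1 at chr2:17087381-17087410, minus strand; ETR2 at chr3:8253900-8253923 and chr3:8254231-8254254, plus strand; EBF1 at chr2:10851753-10851776, minus strand):
ERS1: gaaccctcAGATTCATGAACCTgagctcac
ETR2, far site: tactctttAGATTCATgtatggtg
ETR2, near site: aggttcctAGATTCATgtcatgtg
EBF1: ctctccacAGATACATtcagattc
The GCC box GCCGCC, bound by ERF factors, stood before 0 of the 10 members and before 8.44% of the 27443 protein-coding genes. A match is a string of letters, and binding was not measured.

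EIN4 and EIN3 had the highest and the lowest log2 fold change of the 10. The genes with the smallest distance to EIN4 in centred log2 CPM over the 4 libraries, among 11588 genes averaging 10 CPM or more, were PSB27, AT1G12250 and TLP18.3 (distances 0.097, 0.1 and 0.102). PSB27 had 39.5 and 29.4 CPM in REC and 21.9 and 18.3 CPM in SEC. Those nearest to EIN3 were IP5PII, NPG1 and AT5G27730 (distances 0.025, 0.035 and 0.043), with IP5PII at 56.6 and 58.8 CPM in REC and 70.2 and 106.2 CPM in SEC. With 4 libraries, likeness of this kind is a description only.

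Other genes of the pathway were taken from lists of 52 genes, of which 40 could be tested. By edgeR 0 were higher in REC and 3 were higher in SEC, where 0.495% and 2.18% of all genes tested were, with a median log2 fold change of −0.27 beside 0.024 over all genes tested. Among 18 other signalling components, 0 passed in either direction, and the median was −0.2. At an unadjusted p under 0.05 there were 0 higher in REC and 4 higher in SEC, where 9.46% and 14.1% of all genes tested passed that mark. EIL1, the closest relative of EIN3, had 16 and 12.5 CPM in REC and 13.6 and 20.1 CPM in SEC (log2 fold change −0.24, SE 0.33, adjusted p = 0.714). RAN1, the copper pump that supplies the metal the receptors need to bind ethylene, had 205 and 231 CPM in REC and 121 and 212 CPM in SEC (log2 fold change 0.38, adjusted p = 0.504). RTE1, which promotes the activity of ETR1, had 21.4 and 17.9 CPM in REC and 25 and 16.3 CPM in SEC (log2 fold change −0.07, adjusted p = 0.917). The ARGOS family of membrane proteins, which lower ethylene sensitivity, was picked out after its values were seen. ARGOS had 4.87 and 3.6 CPM in REC and 17.6 and 8.6 CPM in SEC, and ARL had 28.7 and 30.5 CPM in REC and 92.9 and 42 CPM in SEC. OSR1 had 12.1 and 8.74 CPM in REC and 143 and 36.8 CPM in SEC. All 3 were higher in both SEC libraries, as 28.2% of all genes tested were. In the main edgeR fit, with all 4 libraries, the filter, group as the only term and no length correction, none passed (adjusted p = 0.121, 0.165 and 0.0791). The call of OSR1 changed with the setting. With all 4 libraries, it passed as higher in SEC by DESeq2 (adjusted p = 2.51e-06) and in the edgeR fits with no filter (0.0321) and with the length trend removed (−2.67, 0.0265). It also passed with the replicate block (−2.83, 0.000364) and with the block and the trend removed together (−2.54, 0.00551). Among fits with all 4 libraries, ARL passed only by DESeq2 (adjusted p = 0.0452), and ARGOS passed in none. For fits with 1 library left out, only effect sizes are given here. The log2 fold change of OSR1 was −3.11 with all libraries, −2.88 without REC replicate 2, −1.83 without SEC replicate 1 and −3.78 without SEC replicate 2. ARL stood at −1.19 with all libraries, −0.51 without SEC replicate 1 and −1.64 with SEC replicate 2 left out. The transcripts of ARGOS, ARL and OSR1 are short, at 968, 1287 and 950 nt, and SEC replicate 1 held the higher value of each. OSR1 is overlapped on the opposite strand by AT2G41231, which had 111 and 82 counts in REC and 1536 and 414 in SEC, where OSR1 had 154 and 131 in REC and 1853 and 573 in SEC. Without strand, their reads cannot be told apart.

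Of 16 genes known to respond to ethylene, 11 could be tested, 0 were higher in REC, 2 were higher in SEC and 9 did not pass, with a median log2 fold change of −1.12. Over all genes tested, 0.495% were higher in REC and 2.18% higher in SEC. At an unadjusted p under 0.05 the list had 1 gene higher in REC and 5 higher in SEC, where 9.46% and 14.1% of all genes passed that mark. EDF2 (RAV2), a DNA-binding factor of the EDF family induced through EIN3, had 1.88 and 1.27 CPM in REC and 44.7 and 24.8 CPM in SEC. It was 22-fold higher in SEC (log2 fold change −4.46 with an SE of 0.46; edgeR adjusted p = 0.029), and limma voom gave an adjusted p of 0.0543. ORE1, a NAC factor of senescence named NAC6 in the reference, had 2.91 and 2.47 CPM in REC and 16.8 and 12.9 CPM in SEC (log2 fold change −2.46 with an SE of 0.36; edgeR adjusted p = 0.0406). ORE1 missed the threshold with REC replicate 1 left out (adjusted p = 0.217), with REC replicate 2 left out (0.197), with upper-quartile normalization (0.051) and by limma voom (0.0559).

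The other EDF genes did not pass in the main edgeR fit, with the filter, group as the only term and no length correction. EDF1 (TEM1) had 4.71 and 6.54 CPM in REC and 72.3 and 24.3 CPM in SEC (log2 fold change −3.1, SE 0.59, adjusted p = 0.0619). EDF3 had 1.18 and 0.801 CPM in REC and 21.5 and 3.92 CPM in SEC (log2 fold change −3.67, SE 0.93, adjusted p = 0.0947). For both, each SEC library was above both REC libraries, and SEC replicate 1 was the higher. The replicate block called both as higher in SEC (EDF1 at −2.9, adjusted p = 0.000953, and EDF3 at −3.27, adjusted p = 0.0041), as did DESeq2 (adjusted p = 1.21e-06 and 0.00067). Without SEC replicate 1 they stood at −2.1 and −1.98. EDF4 (RAV1) had 6.83 and 6.67 CPM in REC and 14.3 and 5.97 CPM in SEC, and its groups overlapped (adjusted p = 0.537). ERF1, the factor directly under EIN3 that binds the GCC box, had 3.77 and 2.67 CPM in REC and 5.56 and 3.4 CPM in SEC (log2 fold change −0.48, SE 0.52, adjusted p = 0.635). HLS1, ESE1, PDF1.2 and RSL4 had 0 counts in all 4 libraries, which allows up to 0.193 to 0.236 CPM per library.

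Of the ethylene synthesis genes 7 of 14 could be tested, and ACO4, an ACC oxidase gene, was higher in SEC, at 1014 and 1031 CPM in REC and 2393 and 2152 CPM in SEC (log2 fold change −1.15 with an SE of 0.14; edgeR adjusted p = 0.0341). It missed the threshold with REC replicate 1 left out (adjusted p = 0.165) and with REC replicate 2 left out (0.077). Among 4 subunits of the SCF complex into which EBF1 and EBF2 assemble, 0 passed and all 4 log2 fold changes were below 0, with SKP1 at 206 and 197 CPM in REC and 291 and 258 CPM in SEC (adjusted p = 0.208).

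**Figure D5:**
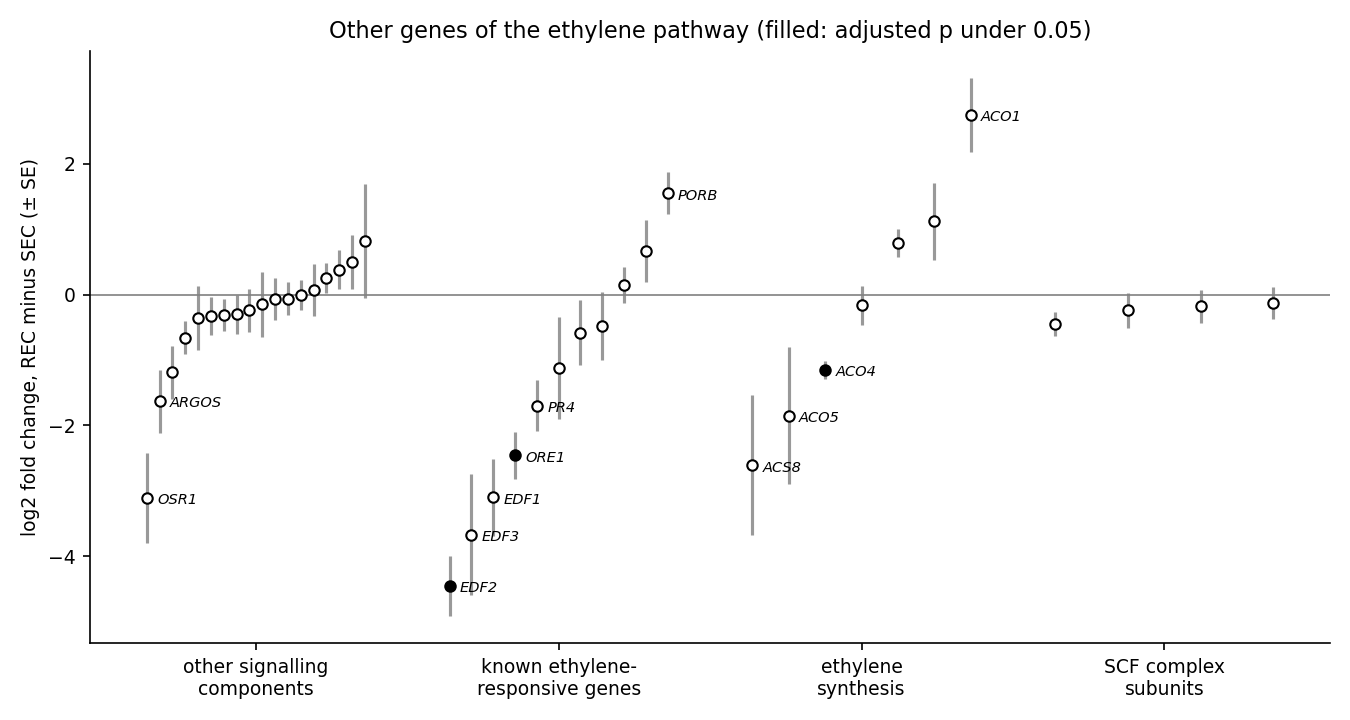
Log2 fold changes of REC minus SEC (vertical axis) with SE bars for the 40 tested genes of the other pathway lists, ordered by value within each list, with filled points for an adjusted p under 0.05. The filled points are EDF2, ORE1 and ACO4, all below 0, the side of higher levels in SEC.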

How the data were processed

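For each library a file of whole-number read counts per gene was deposited, not normalised. The submitters' processing notes name HTSeq 0.6.1, TopHat2 2.0.9, Trimmomatic 0.32.3, Picard 1.119, FastQC 0.11.2, bcl2fastq 1.8.4, DESeq2 and the build TAIR10; annotation and strand setting were not given in the sources used here. Per the labels' protocols, cDNA was amplified for 18 cycles with a low-input kit and libraries were made with a kit that does not mark strand. Titles gave the groups and replicate numbers. The reporter promoter carries another number in each genotype label, and the series' design text, which names QRT2, was followed.

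The 5 closing lines that name no gene were left out. Records counted under no feature were 46.81% and 46.82% of all records in REC and 47.74% and 47.34% in SEC, and records with several alignments 7.48%, 7.027%, 5.637% and 5.744%. As the strand setting was not given, reads of genes among the former cannot be told from reads outside genes. The main test was run in edgeR 4.0.16 under R 4.3.3 (filterByExpr, TMM, quasi-likelihood F test, group as the only term), with Benjamini-Hochberg adjustment over 18384 genes, two-sided, at 0.05. Each SE was derived from the fold change and F, and the 95% interval uses the total degrees of freedom of the fit. Alternatives used DESeq2 1.42.0, limma 3.58.1 (voom), other filters and scalings, each library left out, a replicate block, and offsets for transcript length. These offsets came from a loess (span 0.5) per library, of log2 CPM minus the gene's mean over all libraries, on log transcript length. They therefore also take out any length trend between REC and SEC, not only that within the SEC pair. Only the edgeR fit with group as the only term was tried on simulated counts. Those counts had the same dispersion for all genes and no length trend, unlike the SEC pair, so the trial does not test the other steps. Transcript lengths, symbols, overlaps and upstream sequence came from RefSeq's TAIR10.1; since the files name TAIR10 and hold no coordinates, positions refer to TAIR10.1 only.

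The members and gene lists were chosen with earlier results of these data known. Named genes are the 10 members, up to 4 called genes of each pathway list, EIL1, RAN1, RTE1, ERF1, EDF1 to EDF4, QRT2, and the 3 genes nearest to the members with the highest and lowest fold change; others were named after their values were seen.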

Additional observations from a re-analysis of the deposited data

How the results depend on the processing

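Of all genes tested, 91 were called higher in REC and 400 higher in SEC by edgeR. The numbers were 763 and 1574 by DESeq2, 280 and 836 with no filter beyond 1 count, 1141 and 1531 with the length trend removed, and 87 and 254 with upper-quartile normalization, so REC took 18.5% of the calls in the fit reported and 32.6%, 25.1%, 42.7% and 25.5% in these. The replicate block gave 526 and 1161, and 817 and 1281 with the length trend removed as well. Leaving out 1 library gave 28 to 5630 calls higher in REC and 86 to 4991 higher in SEC. The median log2 fold change of all genes lay between 0.005 and 0.138 over the settings.

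Of the 10 members, 0 were called in either direction by DESeq2, limma voom, upper-quartile normalization, no filter and the replicate block. The length trend removed gave 1 higher in SEC, EIN3, with or without the block. Leaving out 1 library gave 0 to 5 higher in REC and 0 to 4 higher in SEC. Among the members, directions turned for ETR2 (−0.1) and EIN2 (−0.35) with the length trend removed and for EIN2 (−0.09) with the block added. With 1 library left out, ETR2 ranged from −0.08 to 0.63, CTR1 from −0.23 to 0.97, EIN2 from −0.05 to 0.58 and EBF1 from −0.52 to 0.39, with the extremes at the fits without a SEC library. ETR1, ERS1, ERS2, EIN4, EIN3 and EBF2 kept their sign under all 11 alternatives run. For all of these but ERS2 the groups do not overlap, so leaving out 1 library could hardly turn the sign. The other alternatives refit the same 4 libraries, and the share of all genes that keep their sign was not counted.

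Of the other pathway genes, 0 higher in REC and 3 higher in SEC became 2 and 8 by DESeq2, 2 and 6 with no filter, 3 and 6 with the length trend removed, 2 and 7 with the replicate block and 2 and 7 with both, and limma voom gave 1 higher in SEC. The share of all genes called in these fits was 12.7% by DESeq2, 4.82% with no filter, 14.5% with the length trend removed, 9.18% with the block, 11.4% with both and 2.24% by limma voom. Leaving out 1 library gave 0 to 9 pathway genes higher in REC and 1 to 14 higher in SEC, the highest counts without a SEC library, where 38.7% and 55.5% of all genes were called. Among fits with all libraries, EDF1 passed by DESeq2 (−3.1, adjusted p = 1.21e-06), with no filter (−3.04, 0.0222), with the length trend removed (−3.04, 0.0277), with the replicate block (−2.9, 0.000953) and with both (−2.85, 0.0184). Among the same fits, EDF3 passed by DESeq2 (−3.68, 0.00067), with the block (−3.27, 0.0041) and with both (−3.14, 0.0246). RTE1 turned to 0.02 with upper-quartile normalization, and to 0.16 with the length trend removed, with or without the block. With 1 library left out, RTE1 ranged from −0.34 to 0.27, EIL1 from −0.5 to 0.08, EDF4 from −1.07 to 0.18 and QRT2 from −0.39 to 0.22. The cause of these shifts was not tested.

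Taken per kilobase of coding sequence in place of the transcript, the receptor shares moved to 35.6% for ETR1 and 5.95% for ETR2 in REC and to 8.16% for EIN4 in SEC, and the others moved by less than 1 SD. The labels do not say that equal replicate numbers mark a shared batch; the deviations of same-numbered libraries from their group means correlated at 0.1 over 11588 genes, so the block is given as an alternative only. With 4 libraries the median SE over all genes was 0.36 on the log2 scale, which limits the precision of every difference given.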

Other observations

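Within-library ratios between signalling genes, chosen after their values were seen and not tested, set EIN3 against its partners per kilobase of transcript. EIN3 over EBF1 was 2.54 and 2.51 in REC against 4.06 and 3.28 in SEC, without overlap. EIN3 over EIL1 was 9.74 and 12.8 in REC and 14.4 and 14.6 in SEC, also without overlap. Of all single genes tested, 58% had groups that do not overlap, and the share over gene pairs was not counted. EIN3 over EBF2 overlapped, at 7 and 8.12 in REC and 8.05 and 9.21 in SEC. EBF1 over EBF2 was 2.76 and 3.23 in REC and 1.99 and 2.81 in SEC. CTR1 over EIN2 was 5.77 and 6.89 in REC and 3.11 and 11.1 in SEC, so the SEC libraries stood on either side of REC.

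The genes of protochlorophyllide reduction in the list of ethylene-responsive genes had their higher values in REC. PORB had 44.4 and 34.2 CPM in REC and 16.1 and 10.7 CPM in SEC (log2 fold change 1.55 with an SE of 0.32; edgeR adjusted p = 0.0695), and a gene on the opposite strand, AT4G27450, overlaps it. PORA had 9 and 10 counts in REC and 0 in each SEC library, and was not tested. ACO1, an ACC oxidase gene, ran against ACO4, with 28 and 22.6 CPM in REC and 5.71 and 1.86 CPM in SEC (log2 fold change 2.75 with an SE of 0.57; edgeR adjusted p = 0.0711).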
